A study of Danio rerio with 8 samples.

Results

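The genes described here are the integrin subunits of the zebrafish, read from a table of expression in whole eyes of wild-type (WT) embryos and of embryos labelled *flrt2*-KO. They were found by symbol, as the rows on chromosomes 1 to 25 named *itga* or *itgb* with a number, or *itgae*, *itgal*, *itgav* or *itgam*. The rule found 32 of the 37114 genes in the table, and no name was repeated. Of these, 31 encode subunits, 19 alpha and 12 beta, and the remaining gene, *itgb1bp1*, encodes a protein that binds the tail of the beta1 subunit and was counted apart. Symbols that the table writes in another form, such as *itgae.1*, did not meet the rule.

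Integrins are receptors that hold cells to the matrix around them. Each receptor is a pair of an alpha and a beta subunit, both crossing the membrane, and the pair decides which ligand is bound. Laminins are bound through alpha3, alpha6 and alpha7, collagens through alpha1, alpha2, alpha10 and alpha11, and proteins carrying the RGD tripeptide, such as fibronectin and vitronectin, through alpha5, alphaV and alpha8. Inside the cell, talin and kindlin bind the beta tail and switch the receptor on, and the complex is joined to actin through ILK, paxillin and vinculin. In the developing eye, integrins of neuroepithelium and lens bind the basal laminae on which these tissues stand.

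The samples were 4 WT libraries, from the AB strain, and 4 libraries labelled *flrt2*-KO, from homozygotes of 1 CRISPR/Cas9 line with a 20 bp deletion in *flrt2*. Each library held RNA of about 40 pooled eyes taken at 36 hours post-fertilisation. The Methods name eyes where the sample labels name retina. The libraries are called here by the suffix of their titles, which was 12_16, 1_19 and 1_8_ysy in both groups, 1_8 in WT only and 2_17 in *flrt2*-KO only. They held 14394658 to 14835885 gene reads in WT and 13423932 to 14744977 in *flrt2*-KO. Levels are in FPKM, reads scaled to gene length and to the size of the library, as deposited. Nothing states that the pools came from separate clutches, so a p-value measures only the spread between these libraries.

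The mRNA of the targeted gene was not lower in the libraries labelled *flrt2*-KO. *flrt2* had 2.48, 2.33, 2.25 and 2.55 FPKM in the WT libraries and 2.90, 3.99, 2.80 and 3.80 FPKM in those labelled *flrt2*-KO, so that every library of the second group was above every WT library. The mean difference was 0.40 on the scale log2(FPKM + 0.5) (exact two-sided permutation test, p = 0.0286, the smallest p that 4 against 4 libraries allow). In the fit over all genes the adjusted p was 0.110 (limma, Benjamini-Hochberg), and with equal column sums the exact permutation p was 0.0857. The paper reports less *flrt2* mRNA by RT-qPCR in brains of younger larvae, and the deletion by sequencing. A table of totals per gene does not show the deletion itself, and the groups are therefore called by their labels throughout.

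The summed defining markers of neural retina, lens and pigment epithelium were above 0 in all 8 libraries, and no single marker was at 0 throughout. Of 10 neural retina markers, whose sum ranged from 360 to 459 FPKM in WT and from 374 to 471 FPKM in the other group, 1 was lower and none higher. Of 8 lens markers 1 was higher and 2 were lower, and none of 6 for pigment epithelium was called. Of the other tissues checked, markers of epidermis and erythrocytes moved with the groups, whereas none of the tested markers of skeletal muscle (5), thrombocytes (5) or leukocytes (4) was called. Of 6 endothelial markers 1 was lower, and of 3 tested notochord markers 1 was higher. Of 7 markers of mesenchyme and neural crest 1 was lower, and their sum overlapped, at 307 to 365 FPKM in WT and 194 to 389 FPKM in the other group. The sum of 7 epidermal markers was 2641 to 3661 FPKM in WT and 1224 to 2376 FPKM in the libraries labelled *flrt2*-KO, with 2 of the 4 tested lower. The sum of 5 erythrocyte markers was 1002 to 1835 FPKM against 367 to 921 FPKM, with all 3 tested lower. Calls are at an adjusted p under 0.05 (limma), met as lower by 7.37% and as higher by 8.28% of all genes tested. In pooled tissue, fewer cells of a type and less RNA per cell cannot be told apart.

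A few beta1 and alphaV genes made up most of the summed integrin FPKM. *itgb1b*, a beta1 gene, alone held 28.3% of the summed FPKM of the 31 subunits, the 4 highest genes held 62.5% and the 10 highest 87.9%. *itgav*, encoding alphaV, held 43.3% of the summed alpha FPKM, followed by *itga3b* with 16.3%. *itgb1b* held 45.1% of the summed beta FPKM. These shares are of the genes' own rows and depend on the annotated gene lengths. The beta1 subunit pairs with most alpha subunits, whereas alphaV pairs with beta1, beta3, beta5, beta6 and beta8. Over all subunits, the mean level with its SD over 4 libraries was 172 ± 17.8 FPKM for WT and 146 ± 19.6 FPKM for the second group, which overlapped.

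**Figure D1:**
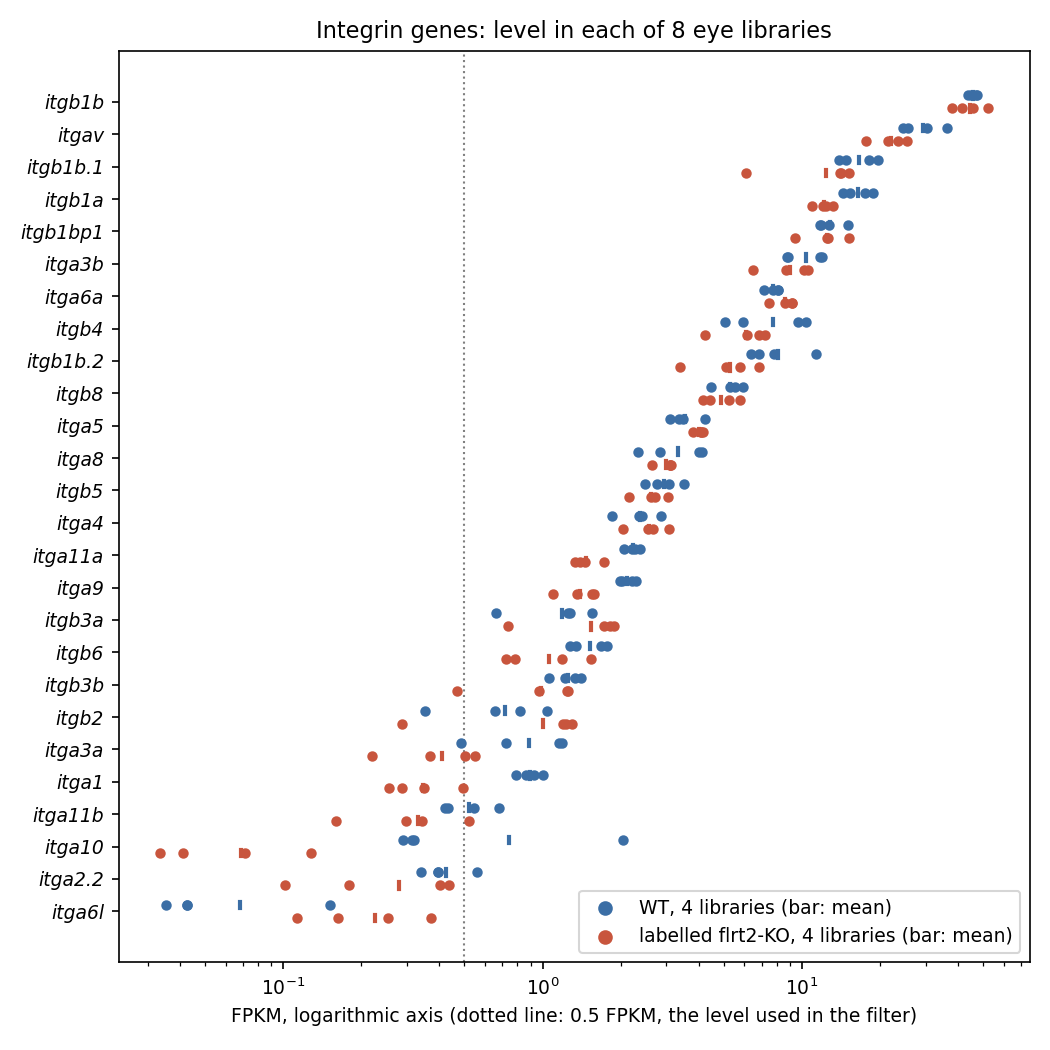
FPKM (horizontal, logarithmic axis) of the 26 integrin genes read in every library, ordered by mean level from the top. Each point is 1 library, WT in blue and labelled *flrt2*-KO in red, and bars are group means. *itgb1b* and *itgav* stand highest, the 2 groups of *itga1*, *itga10*, *itga11a*, *itga9* and *itgb1a* do not overlap, and the red point far to the left of *itgb1b.1* is library 12_16 at 6.10 FPKM.

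The main question was which subunits differed between the groups. Of the 21 subunit genes that reached 0.5 FPKM in 4 or more of the 8 libraries, the filter used, 2 fell in the group labelled *flrt2*-KO at an adjusted p under 0.05, *itga1* and *itgb1a*, and none rose. Of all 21012 genes tested with the same filter, 7.37% were lower and 8.28% higher, 15.6% in all, so 2 of 21 is near the background. These 21012 come from the whole table and include copies on alternate contigs, described below. With the reads of such copies added to their genes, the shares were 4.94% and 5.88%. At an unadjusted p under 0.05 the subunits counted 7 lower and 0 higher, where all genes gave 14.0% and 15.2%. With voom of limma on reads recovered from the FPKM values, 4 subunits were lower and 0 higher, beside 8.58% and 7.17% of all genes, and without the trend and robust prior 3 were lower and 0 higher, beside 7.20% and 7.71%. Those 3 were *itga1*, *itga11a* and *itga9*, while *itgb1a* was lost (adjusted p = 0.0579). The 2 groups did not overlap for 4 subunits, *itga1*, *itgb1a*, *itga11a* and *itga9*, all lower, beside 9.76% of all genes that were lower without overlap and 11.4% that were higher. For the other 17 the groups overlapped.

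The estimate was below 0 for 16 of the 21 subunits, beside 51.7% of all genes, and the median log2 fold change was -0.27, beside -0.014 over all genes. This median rested in large part on 1 library. Without the library 12_16 labelled *flrt2*-KO the median was -0.082, with 15 of 21 estimates below 0 and 1 subunit lower. The 31 subunits are related genes measured in the same libraries and are not replicates.

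**Figure D2:**
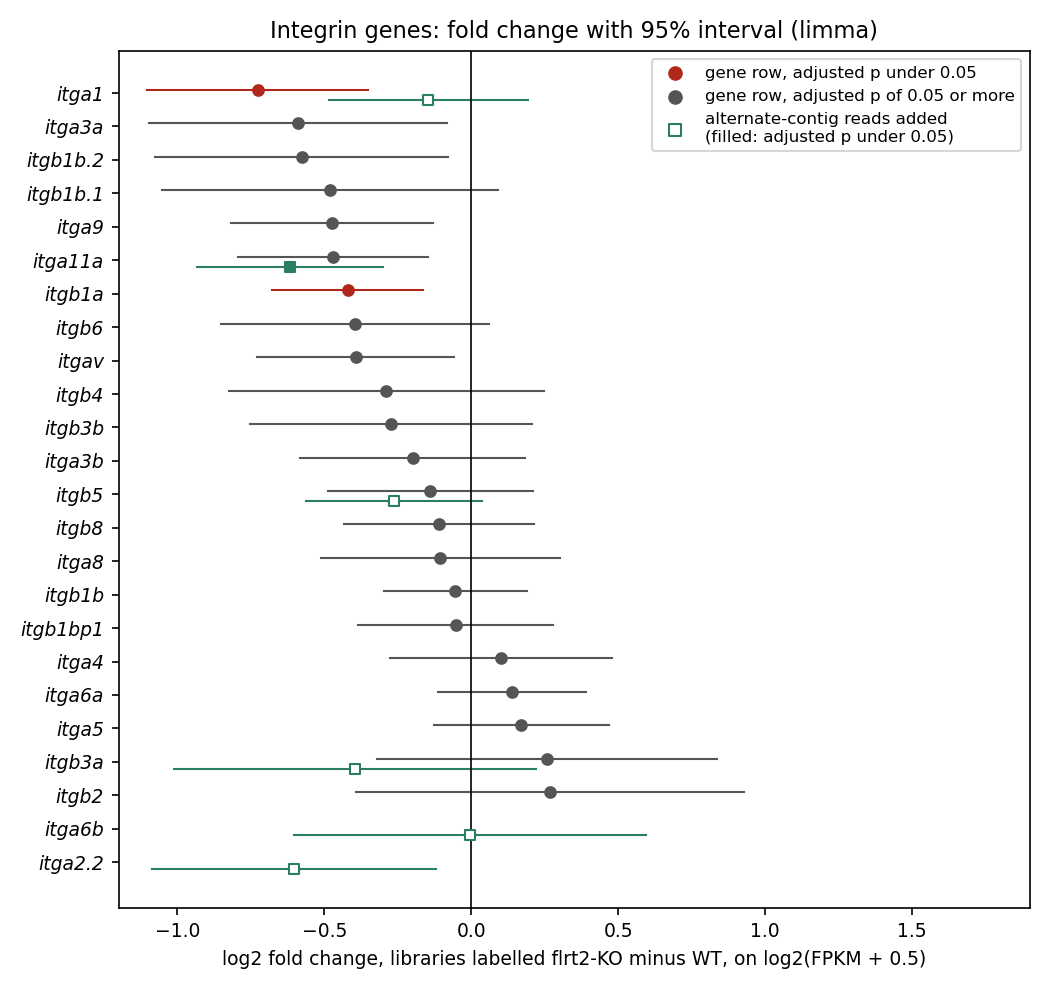
Log2 fold change, libraries labelled *flrt2*-KO minus WT, on log2(FPKM + 0.5), with the 95% interval of limma, for the tested integrin genes. Circles are the gene's own row, red at an adjusted p under 0.05, and green squares are the 6 genes after reads of alternate-contig copies were added, filled at an adjusted p under 0.05. *itga1* lies at -0.73 by its own row and at -0.15 with those reads, while *itga11a* moves from -0.47 to -0.62.

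Of the 4 beta1 genes, *itgb1a* fell. It lies on chromosome 24 (GRCz11, 1110138 to 1151483) and encodes one of the zebrafish copies of beta1. Its level was 14.3, 15.3, 17.5 and 18.8 FPKM in the WT libraries 12_16, 1_19, 1_8 and 1_8_ysy, and 12.4, 12.1, 10.9 and 13.2 FPKM in the *flrt2*-KO libraries 12_16, 1_19, 2_17 and 1_8_ysy. The highest library of the second group was below the lowest WT library. The means and SDs over 4 libraries were 16.5 ± 2.01 and 12.1 ± 0.921 FPKM, and the log2 fold change was -0.42 ± 0.116 (SE, limma, adjusted p = 0.0340). When each library was left out in turn, this was the less stable of the 2 calls, with an adjusted p from 0.0226 to 0.0962. It was above 0.05 without WT 1_8 (0.0931), WT 1_8_ysy (0.0962), or *flrt2*-KO 12_16 (0.0636), 1_19 (0.0821) or 2_17 (0.0761). With alternate-contig reads added, the call on *itga1* was lost, as given below. No alternate row was matched to *itgb1a*, so its levels could not change in that fit, and its call stayed. Blocking on the title suffix, where only the 3 pairs of like suffix set the change, gave -0.34 (adjusted p = 0.141).

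The copy with the higher FPKM, *itgb1b* on chromosome 2, did not differ by this test. By reads, *itgb1a* was higher, at 6001 in WT against 4322, and the FPKM order depends on the annotated lengths, 6015 and 1563 bases. *itgb1b* had 43.7, 46.9, 47.3 and 45.0 FPKM in WT and 37.9, 45.6, 41.4 and 52.3 FPKM in the libraries labelled *flrt2*-KO, which lay on both sides of the WT range. The log2 fold change was -0.054, with a 95% interval of -0.30 to 0.19 (adjusted p = 0.792). Next to it on chromosome 2 lie *itgb1b.1* and *itgb1b.2*, tandem copies within a stretch from 43577294 to 43653328. *itgb1b.1* had 14.8, 18.2, 13.9 and 19.5 FPKM in WT and 6.10, 15.2, 14.0 and 14.1 FPKM in the libraries labelled *flrt2*-KO. Its estimate of -0.48 (adjusted p = 0.251) rested on the single low library, 12_16, without which it was -0.19. *itgb1b.2* had 6.80, 7.83, 6.36 and 11.3 FPKM in WT and 3.38, 5.08, 6.83 and 5.78 FPKM in the other group, and overlapped (log2 fold change -0.58, adjusted p = 0.115). With the suffix as a block, where only the 3 pairs of like suffix set the change, *itgb1b.2* was lower by test (-0.80, adjusted p = 0.0260). It was the only subunit called in that fit, where 4.72% of all genes were lower and 5.40% higher. That change leaves out WT 1_8, the lowest WT library at 6.36 FPKM, and *flrt2*-KO 2_17, the highest of its group at 6.83 FPKM. Reads of neighbours with like sequence can be split by counting, and the likeness of these copies was not checked. Their separate levels are therefore uncertain.

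The share of *itgb1b* beside *itgb1a* restates the levels given above and is not a separate difference. The tandem copies next to *itgb1b* were left out of it, and the share was not tested. *itgb1b* made up 75.3, 75.3, 73.0 and 70.6% of the summed *itgb1a* and *itgb1b* FPKM in WT, and 75.4, 79.1, 79.1 and 79.9% in the libraries labelled *flrt2*-KO. The ranges did not overlap, but the nearest values, 75.33% and 75.38%, were almost equal.

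The 7 genes of collagen-binding alpha subunits were low, and the 2 tested were below WT without overlap. *itga1* lies on chromosome 10 (8730988 to 8841038) and encodes alpha1, which pairs with beta1 to bind collagen, type IV in particular. It had 1.001, 0.929, 0.793 and 0.863 FPKM in WT and 0.287, 0.256, 0.350 and 0.495 FPKM in the libraries labelled *flrt2*-KO. Every library of the second group was below every WT library. The log2 fold change was -0.73 ± 0.169 (SE, limma, adjusted p = 0.0157) and remained under 0.05 with each library left out (0.0184 to 0.0487). At this low level the size depended on the scale, with -1.18 at a pseudocount of 0.1, -0.50 at a pseudocount of 1 and -1.46 with voom on recovered reads (adjusted p = 0.0218, 0.0152 and 0.00513). With the suffix as a block, on the 3 pairs of like suffix alone, it was -0.77 (adjusted p = 0.0956). These values rest on 44 to 58 reads per WT library and 14 to 25 per *flrt2*-KO library.

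*itga11a*, on chromosome 7 (33176517 to 33248773), encodes an alpha11 subunit, a receptor for fibrillar collagen in mesenchymal cells. It had 2.22, 2.27, 2.37 and 2.06 FPKM in WT and 1.33, 1.46, 1.39 and 1.72 FPKM in the libraries labelled *flrt2*-KO. The groups did not overlap, and the log2 fold change of -0.47 ± 0.146 (SE) just missed the threshold (limma, adjusted p = 0.0543).

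The genome build used, GRCz11, holds second copies of some genes on alternate contigs, which represent other haplotypes, and reads were counted there as separate genes. In all, 10 such rows carried the protein name of 6 of the subunits within 0.2 Mb, namely *itga1*, *itga2.2*, *itga11a*, *itga6b*, *itgb3a* and *itgb5*. All overlapped the gene in position except 1 row of *itga11a*. Where such reads were added, the sum was scaled to the length of the gene's own row, whatever the length of the alternate row. For *itga1* the split of reads between the copies differed between the groups. Its own row held 204 reads in WT and 72 in the libraries labelled *flrt2*-KO, while the alternate copy held 448 and 464. The alternate copy thus took 61.3 to 73.7% of the gene's reads in WT and 83.2 to 90.7% in the libraries labelled *flrt2*-KO. With both copies added the means and SDs (n = 4) were 2.87 ± 0.206 and 2.57 ± 0.477 FPKM, the groups overlapped, and the log2 fold change was -0.15, with a 95% interval of -0.49 to 0.19 (adjusted p = 0.596). The call on *itga1* was therefore made on 1 copy of the sequence and was lost with both together. Whether the 2 groups carry different haplotypes there was not tested.

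For *itga11a* the same addition went the other way. The own row held 642 and 390 reads and the 4 alternate rows 201 and 69. Of these 4, the row from 33163456 to 33171599 lay 4918 bp outside the position of the gene. It held 18 to 44 reads per WT library and 3 to 14 per *flrt2*-KO library, and the sum without it was not tested. The summed level was 2.86, 2.65, 3.30 and 2.90 FPKM in WT and 1.58, 1.63, 1.70 and 2.03 FPKM in the libraries labelled *flrt2*-KO. The groups stood further apart than by the own row alone, with a log2 fold change of -0.62 ± 0.143 (SE, limma, adjusted p = 0.0208). Counted in this way 2 of 23 subunits were lower and none was higher, beside 4.94% and 5.88% of all genes. They were *itga11a* and *itgb1a* (limma, adjusted p = 0.0412), the latter with no alternate row.

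**Figure D3:**
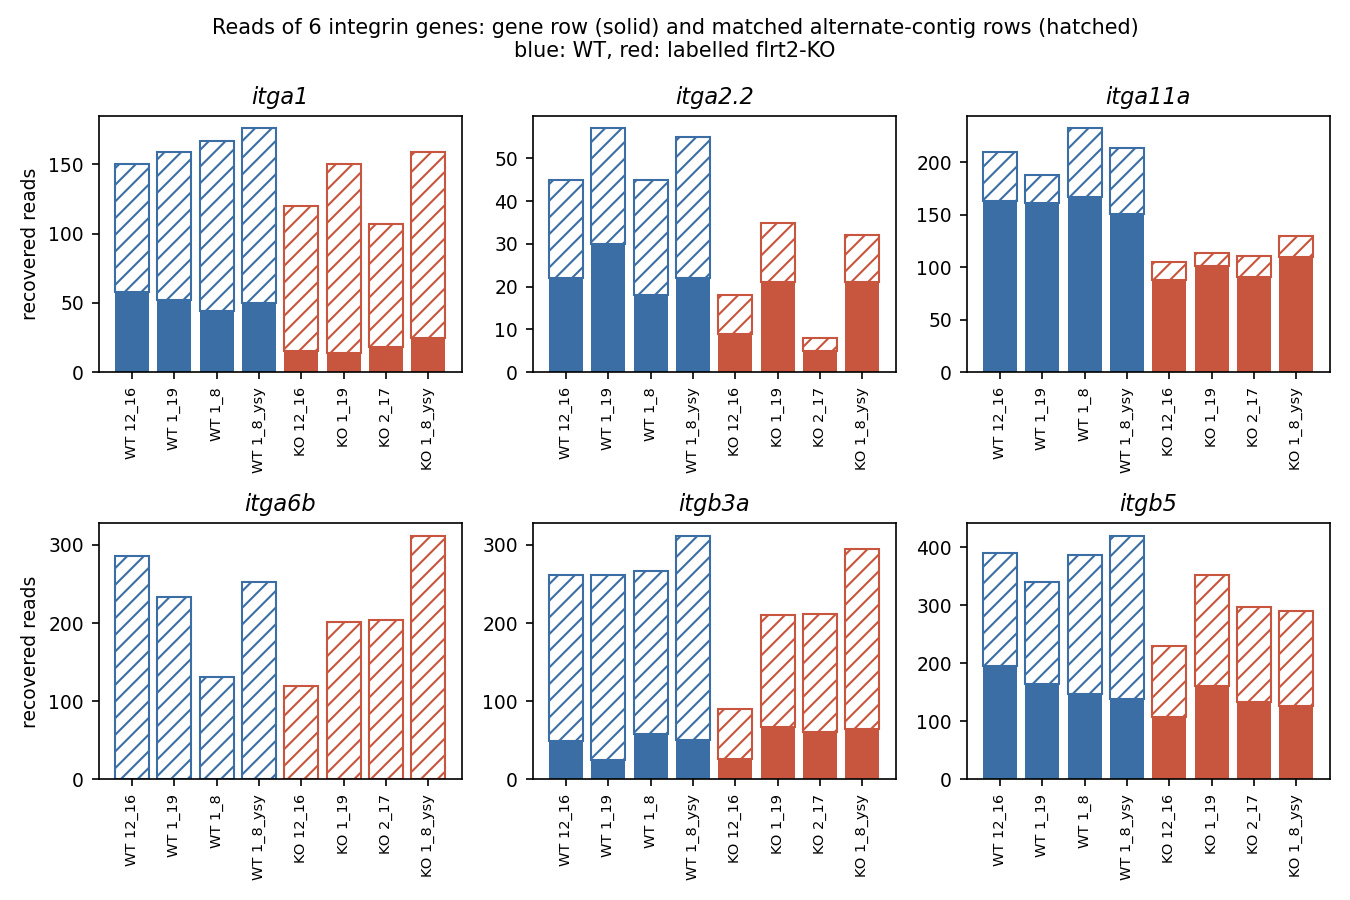
Recovered reads (vertical axis, from 0) of 6 integrin genes in each library, in the gene's own row (solid) and in matched alternate-contig rows (hatched, stacked on top), WT in blue and labelled *flrt2*-KO in red. The solid part of *itga1* shrinks from 44 to 58 reads in WT to 14 to 25 in the other group while the hatched part does not, both parts of *itga11a* are smaller in the red bars, and *itga6b* has reads in the hatched part only.

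The other collagen-binding genes did not pass the filter by their own rows. *itga10*, encoding alpha10 of cartilage, had 39, 264, 41 and 42 reads in the WT libraries and 5, 9, 4 and 15 in the other group. The groups did not overlap, but 1 WT library, 1_19, held 264 of the 386 WT reads, and the fit without a filter gave an adjusted p of 0.148. *itga11b*, the second alpha11 copy, had 141 reads in WT and 83 in the libraries labelled *flrt2*-KO. *itga2.2*, a copy of alpha2, had 92 and 56 reads by its own row. With 2 alternate rows added *itga2.2* passed the filter, with means and SDs (n = 4) of 0.929 ± 0.119 and 0.464 ± 0.247 FPKM, without overlap and with a log2 fold change of -0.60 (adjusted p = 0.108). *itga2.1* and *itga2.3* had 0 reads in all libraries by their own rows, which allows up to 3 reads in each by counting error alone. No alternate row was matched to either gene. The case of *itga6b*, below, shows that reads can be counted wholly on an alternate copy.

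Summed over the 7 genes, the collagen-binding level was 4.06 to 6.21 FPKM in WT and 1.996 to 3.08 FPKM in the libraries labelled *flrt2*-KO. With the alternate copies added the ranges were 7.23 to 9.01 and 4.32 to 6.27 FPKM. The groups did not overlap on either count. The sum is a description of genes grouped by role and was not tested.

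Among the RGD-binding alpha subunits and the beta partners of alphaV other than beta1 none passed the test. *itgav* on chromosome 9, the receptor subunit for vitronectin, had 25.5, 30.3, 24.6 and 36.2 FPKM in WT and 17.7, 23.4, 21.4 and 25.4 FPKM in the libraries labelled *flrt2*-KO. The ranges overlapped at 1 library, 1_8_ysy, and the log2 fold change was -0.39, with a 95% interval of -0.73 to -0.060 (adjusted p = 0.110). *itga5*, the alpha5 of the fibronectin receptor, had 3.11 to 4.23 FPKM in WT and 3.80 to 4.15 FPKM in the other group. Its estimate, 0.17, lay above 0 (adjusted p = 0.447). *itga8*, whose product binds nephronectin, had 2.33 to 4.12 and 2.64 to 3.11 FPKM (adjusted p = 0.753). *itga2b*, the platelet and thrombocyte subunit, had 0 reads in WT and 3 in the libraries labelled *flrt2*-KO.

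The 5 genes for beta partners of alphaV other than beta1 summed by their own rows to 11.9 to 12.4 FPKM in WT and 8.48 to 12.7 FPKM in the other group. With alternate copies added the sums were 20.8 to 24.1 and 12.7 to 21.3 FPKM, which also overlapped. *itgb8*, which with alphaV activates latent TGF-beta, was the most abundant by the genes' own rows, with 4.45, 5.92, 5.28 and 5.53 FPKM in WT and 4.41, 5.76, 5.23 and 4.14 FPKM in the other group. Its interval ran from -0.43 to 0.21 (adjusted p = 0.671). *itgb5* had 2.47 to 3.49 and 2.14 to 3.04 FPKM, and with its alternate copy 6.30 to 7.52 and 4.57 to 6.68 FPKM (log2 fold change -0.26, adjusted p = 0.253). With alternate copies added, *itgb3a* and *itgb5* had means of 6.46 and 6.41 FPKM over all libraries, beside 5.09 FPKM for *itgb8*, which had no alternate row. The added reads were scaled to the own row, which has 2535 bases for *itgb3a*, where its alternate row has 4872. Scaled to their own lengths, the own and alternate rows of *itgb3a* had means of 1.36 and 2.65 FPKM. The rank of *itgb3a* beside *itgb8* thus depends on the length used. *itgb6*, the epithelial partner, had 1.27 to 1.77 and 0.723 to 1.54 FPKM (adjusted p = 0.237).

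*itgb3a* and *itgb3b* are the beta3 copies, and beta3 with alphaV binds vitronectin. By the own rows, *itgb3b* made up 44.0 to 67.9% of the pair in WT and 34.1 to 41.8% in the libraries labelled *flrt2*-KO, without overlap. The own row of *itgb3a*, however, held only 182 WT reads, where the alternate copy held 919. With its alternate copy added, the share of *itgb3b* was 13.7 to 16.9% and 10.1 to 18.1%, which overlapped. The size of this share also depends on the length to which the added reads were scaled. The estimate for *itgb3a* turned from 0.26 (adjusted p = 0.564) to -0.40 (adjusted p = 0.405).

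The laminin-binding subunits gave no call. *itga3b*, an alpha3 copy, had 8.86, 11.96, 8.76 and 11.7 FPKM in WT and 6.49, 10.5, 10.2 and 8.64 FPKM in the libraries labelled *flrt2*-KO. *itga6a*, an alpha6 copy, had 7.13, 8.05, 7.70 and 8.11 FPKM in WT and 8.63, 9.17, 9.16 and 7.43 FPKM in the other group. Both overlapped, with log2 fold changes of -0.20 (adjusted p = 0.492) and 0.14 (adjusted p = 0.467). *itga3a*, the rarer alpha3 copy, had 0.484 to 1.19 and 0.220 to 0.551 FPKM (log2 fold change -0.59, adjusted p = 0.114). The share of *itga3b* in that pair was 88.1 to 94.8% and 94.0 to 96.7%.

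*itgb4* pairs with alpha6 in the hemidesmosome, which anchors basal epidermal cells to laminin. It had 5.04, 9.69, 5.94 and 10.3 FPKM in WT and 4.21, 7.18, 6.16 and 6.83 FPKM in the other group, a log2 fold change of -0.29 (adjusted p = 0.475). The summed epidermal markers were lower in the same group, as given above, and their part in the level of *itgb4* was not tested.

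The second alpha6 copy, *itga6b*, was listed at 0 in every library by its own row on chromosome 1. Its alternate copy held 902 reads in WT and 836 in the libraries labelled *flrt2*-KO, a level of 1.86 to 3.90 and 1.80 to 4.88 FPKM. All reads of this gene were thus counted on that copy. The log2 fold change was -0.0051 (adjusted p = 0.993), and *itga6b* made up 19.5 to 35.3% of the alpha6 pair in WT and 17.2 to 39.6% in the other group. *itga6l* had 31 reads in WT, 17 of them in library 1_8, and 95 in the libraries labelled *flrt2*-KO, below the filter.

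The subunits of migrating and blood cells were low. *itga9*, encoding alpha9, which binds tenascin-C and an alternatively spliced form of fibronectin, had 1.98, 2.02, 2.21 and 2.29 FPKM in WT and 1.097, 1.36, 1.55 and 1.58 FPKM in the libraries labelled *flrt2*-KO. The groups did not overlap, and the log2 fold change of -0.47 ± 0.155 (SE) missed the threshold (limma, adjusted p = 0.0656). It passed with voom on recovered reads (-0.68, adjusted p = 0.0229), as did *itga11a* (-0.67, adjusted p = 0.0180). *itga4*, encoding alpha4, had 1.86 to 2.87 and 2.04 to 3.06 FPKM (log2 fold change 0.10, adjusted p = 0.748).

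*itgb2*, encoding the beta2 of leukocytes, had 0.353, 0.654, 0.815 and 1.04 FPKM in WT and 0.288, 1.20, 1.23 and 1.30 FPKM in the other group (log2 fold change 0.27, adjusted p = 0.604). Library 12_16 was lowest in both groups. The sum of 8 leukocyte markers was lowest in the same libraries, 9.19 FPKM in WT and 5.68 FPKM in *flrt2*-KO, against 14.4 to 19.4 and 15.1 to 17.1 FPKM in the others. *coro1a* of that list was at 0 in all libraries. The part of leukocytes in the level of *itgb2* was not tested. *itgam* had 4 and 6 reads and *itgb7* none.

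The binding protein gene *itgb1bp1*, which encodes ICAP1, an inhibitor of beta1 activation, was among the 10 highest genes of the rule. It had 12.7, 11.7, 11.8 and 15.0 FPKM in WT and 9.43, 12.5, 15.1 and 12.6 FPKM in the libraries labelled *flrt2*-KO, with a log2 fold change of -0.054 (adjusted p = 0.855). The share of *itga11b* in the alpha11 pair, 15.6 to 23.4% and 10.8 to 26.3%, also overlapped.

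Many subunits had their lowest or highest level in the same library. These counts were not made over all genes, so they do not show a trait particular to integrins. Within the group labelled *flrt2*-KO, library 12_16 was the lowest for 16 of the 21 tested subunits, with a median deviation of -0.27 (log2) from the group mean. Within WT, library 12_16 was the lowest for 10 and library 1_8 for 8, with median deviations of -0.15 and -0.075. In all, 7 genes were lowest in library 12_16 of both groups, namely *itgb1b*, *itgb4*, *itga8*, *itga4*, *itga9*, *itgb3b* and *itgb2*. With 10 and 16 of 21 genes lowest there, an overlap of about this size arises between unrelated groups. Library 1_8_ysy was the highest for 10 subunits in each group. What the suffixes stand for is not given in the sources used here.

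**Figure D4:**
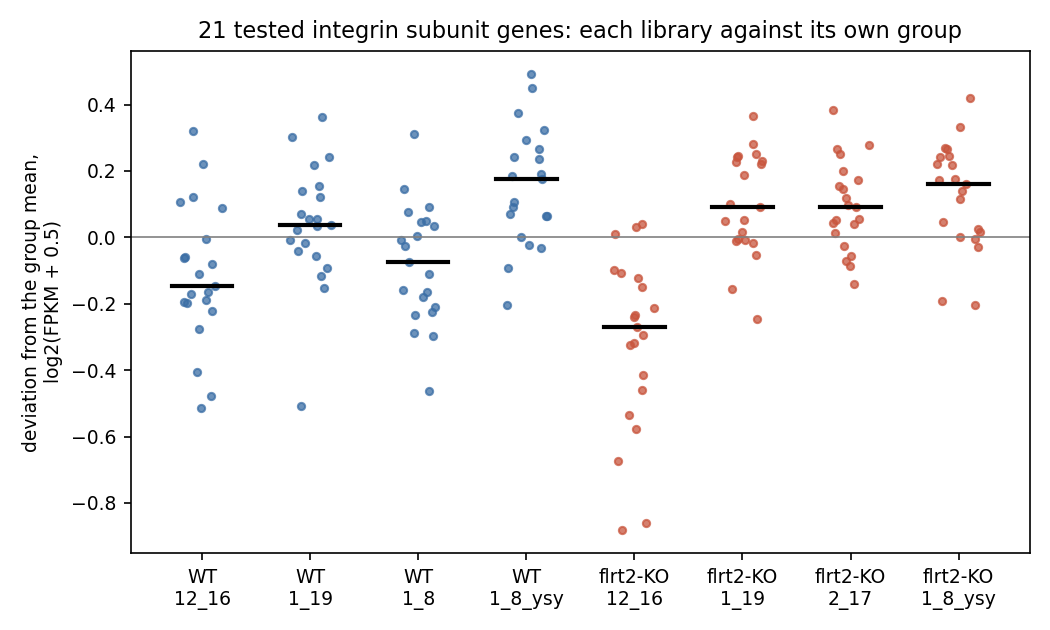
Deviation of each tested subunit from its own group mean, in log2(FPKM + 0.5), by library. Each point is 1 of 21 genes, WT in blue and labelled *flrt2*-KO in red, and black bars are medians. The points of *flrt2*-KO 12_16 lie lowest, with a median of -0.27, and the medians of both 1_8_ysy libraries lie above 0, with 4 of 21 points below 0 in each.

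The ligands and inner partners of integrins were counted next, beside the 8.28% of all genes that were higher and the 7.37% that were lower. At an unadjusted p under 0.05 (limma) these shares were 15.2% higher and 14.0% lower, and with voom 7.17% and 8.58%. None of the 17 tested genes for fibronectin, vitronectin and other RGD proteins was called in either direction (limma), with 4 lower at an unadjusted p under 0.05 and 1 lower with voom. Of the 4, *fn1a* went from -0.52 to -0.16 and *tnc* from -0.75 to 0.022 with alternate-contig reads added. No such reads were added to *mfge8a* and *thbs3b*, so their estimates could not change. None of 15 collagen genes was called, with 5 lower at an unadjusted p and 2 lower with voom. The median log2 fold changes of these lists were -0.15 and -0.24, beside -0.014 over all genes.

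Of 11 laminin genes, 1 was higher, *lamb2l*, a laminin beta chain. It had 4.52, 6.07, 6.30 and 5.47 FPKM in WT and 8.93, 9.38, 9.02 and 7.14 FPKM in the libraries labelled *flrt2*-KO, all above WT (log2 fold change 0.58 ± 0.141, SE, limma, adjusted p = 0.0186). The median of the list was -0.018, with 2 higher and 1 lower at an unadjusted p under 0.05 and 1 higher and 0 lower with voom. With alternate-contig reads added, the 1 lower, *lamb1b*, went from -0.46 to -0.018. The estimates of the 2 higher, *lamb2l* and *lama1*, were unchanged in that fit.

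Inside the cell, none of 18 genes for talins, kindlins and regulators of activation was called (1 higher at an unadjusted p, 0 with voom), and none of 8 genes of the ILK, PINCH and parvin complex (1 lower at an unadjusted p, 0 with voom). Of 28 genes for focal adhesion kinase, paxillin and links to actin, 1 was higher and 1 lower (2 and 4 at an unadjusted p, 1 and 2 with voom). *fyna*, a Src family kinase, had 42.9, 26.1, 34.0 and 28.4 FPKM in WT and 24.8, 17.2, 21.0 and 22.8 FPKM in the other group, all below WT (log2 fold change -0.59 ± 0.166, SE, limma, adjusted p = 0.0370). *pxna*, a paxillin gene, had 2.49 to 4.05 and 5.43 to 8.88 FPKM, a log2 fold change of 1.01 (adjusted p = 0.00629). With alternate-contig reads added the change of *pxna* was 0.25 (adjusted p = 0.380), so this call too was lost with the copies together.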

How the data were processed

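RNA-seq libraries of pooled eyes (paired 150 bp reads) were aligned by the authors with HISAT2 2.0.5 to GRCz11 and counted per gene with featureCounts 1.5.0-p3, and the deposited table holds FPKM values per gene. The Methods name the NEBNext Ultra kit, the sample labels a TruSeq kit. Groups were taken from the labels. Reads were recovered from FPKM and gene length, and all values (100%) came out whole within 0.01 reads. Median-ratio factors of the deposited FPKM were 1 in every library, so these values already carried that scaling. The columns mapped to all 8 samples.

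Values were tested as log2(FPKM + 0.5) with limma 3.58.1 (R 4.3.3, intensity trend, robust prior) over the 21012 genes that reached 0.5 FPKM in 4 or more of the 8 libraries, with Benjamini-Hochberg adjustment over all of them and a threshold of 0.05. Signs are *flrt2*-KO minus WT. An FPKM fold change with a pseudocount understates the change of low genes. Of these steps, only the limma fit with its adjustment was tested on simulated data. A row of an alternate contig was matched to a gene with the same protein name within 0.2 Mb on the same chromosome. Added reads were scaled to the length of the gene's own row, so levels with them depend on that length. Python 3.11.15 (pandas 2.3.3, numpy 2.4.6, matplotlib 3.10.9) served for tables and plots.

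Named genes were the called subunits, the 10 highest genes of the rule, pairs of a and b copies, and called members of the partner lists. The members and lists were chosen with earlier results of these data known. The title suffix was used as a block in an alternative, since deviations from the group means correlated across genes at r = 0.106 to 0.141 in the 3 pairs of like suffix, and at -0.223 to 0.112 in the 13 others. In that fit WT 1_8 and *flrt2*-KO 2_17 have no partner, so the group change rests on the 3 pairs alone. Other alternatives changed the pseudocount, the filter, the scaling, the variance prior and the test (voom on recovered reads), added alternate-contig reads or left out each library.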

Additional observations from a re-analysis of the deposited data

Results flagged for a closer look

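In 6 of the 55 groups of 4 libraries examined, 1 library lay far from the other 3 by Dixon's test at the 95% level, where chance alone gives about 1 in 20. Of the 6, 4 were library 12_16 labelled *flrt2*-KO. *itgb1b.1* had 6.10 FPKM there against 14.0 to 15.2 FPKM in the other libraries of the group, and *itga8* had 2.64 against 3.09 to 3.11 FPKM. *itgb3a* had 0.737 against 1.73 to 1.88 FPKM, and *itgb2* had 0.288 against 1.20 to 1.30 FPKM. In WT, *itga10* had 2.03 FPKM in library 1_19 against 0.291 to 0.319 FPKM in the others, and *itga6l* had 0.151 FPKM in library 1_8 against 0.0353 to 0.0427 FPKM. The causes were not tested.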

How the results depend on the processing

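Of 376 combinations of a subunit and an alternative, 359 kept their direction and their side of the threshold, 9 lost a call, 6 gained one and 2 turned. Most combinations were of subunits with no call to lose. The 9 losses fell on the called genes, *itga1* in 2 of 17 alternatives and *itgb1a* in 7 of 18. Median-ratio scaling, among the 18, had factors of 1 and so could change nothing. *itgb1b* turned from -0.054 to 0.016 without the library 12_16 labelled *flrt2*-KO (range -0.14 to 0.016 with a library left out), and *itgb3a* from 0.26 to -0.40 with alternate-contig reads added. The count of higher subunits was 0 under every alternative run. The count of lower subunits was 1 with a filter at 1 FPKM, where *itga1* was not tested, 1 with the replicate block (*itgb1b.2*), 3 without trend or robust prior and 4 with voom, and ranged from 1 to 2 with a library left out. With the block the *itga1* and *itgb1a* calls were lost, that of *itgb1b.2* was gained and no other subunit changed. Because WT 1_8 and *flrt2*-KO 2_17 have no partner, that fit takes the group change from fewer libraries than the others. In all genes the block gave 4.72% lower and 5.40% higher, where the fit without it gave 7.37% and 8.28%. Equal column sums and voom shifted the median of all genes to -0.074 and -0.084, and of all calls 45.2% and 45.5% were then higher, against 52.9%. *flrt2* was higher by 0.35 with equal column sums (exact permutation p = 0.0857) and by 0.33 to 0.48 with a library left out. At 14 to 58 reads per library in the own row of *itga1*, counting error limits what can be seen. The cause of these changes was not tested.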

Other observations

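Other rows on chromosomes 1 to 25 carry an integrin protein name without a symbol that met the rule, 13 in all. A fragment next to the beta1 copies on chromosome 2, CABZ01058721.1, had 40.6 to 46.8 FPKM in WT and 35.8 to 47.5 FPKM in the libraries labelled *flrt2*-KO (limma, adjusted p = 0.364), a level near that of *itgb1b*. Fragments named for alpha7, the laminin receptor of muscle, lie at the start of chromosome 11. One of them, from 79654 to 86799, had 4.40 to 5.02 FPKM in WT and 2.73 to 3.83 FPKM in the other group, without overlap (log2 fold change -0.50 ± 0.141, SE, limma, adjusted p = 0.0362), whereas the other 4 overlapped and gave no call. The sum of 7 skeletal muscle markers was 12.9 to 33.3 and 18.6 to 33.6 FPKM.

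Rows outside the rule also carry names of leukocyte alpha subunits. A row on chromosome 1 named for alphaL had 0.477 to 0.744 FPKM in WT and 0.866 to 1.29 FPKM in the libraries labelled *flrt2*-KO, without overlap (log2 fold change 0.52, adjusted p = 0.0685). *itgae.1*, named for alphaE, had 8 reads in WT and 62 in the other group, of which library 12_16 held the fewest, 2. A row named for alphaX, si:dkey-32n7.4, had 68 and 54 reads. These rows were chosen after their values were seen and serve as a description.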
